A study of Mus musculus with 3 samples.

Results

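The insulin-like growth factor (IGF) binding system was taken as 9 genes: the ligand Igf2, the binding proteins Igfbp2, Igfbp3, Igfbp4, Igfbp5, Igfbp6 and Igfbp7, and the receptors Igf1r and Igf2r. They were found by symbol among the 21750 features of the count matrix, where each symbol stood once. No cut on a measured value picked them, but the list was chosen with earlier results of these data known. The study repressed Hopx, a homeobox gene, in astrocyte-lineage cells of the mouse hippocampus. Its single-cell library came from Aldh1l1CreERT2;Rosa26-LSL-tdTomato mice whose hippocampi received AAV-TIGRi-Hopx, a Cre-dependent vector with an EGFP reporter, before tamoxifen. Cells of 5 pooled mice were taken 3 weeks after tamoxifen, sorted for tdTomato and EGFP, and run as 1 library, so that no barcode belongs to a known mouse and no p-value can be given. No library of mice without the vector was analysed here, and the Aldh1l1 promoter that drives the inducible Cre limits the design to cells in which it is active. The age of the mice was not among the labels, and the chromatin samples of primary astrocytes (anti-Flag and IgG) were not analysed here.

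Of 6672 barcodes, 6485 passed the filter of at least 500 genes and at most 15% mitochondrial UMIs (unique molecular identifiers, each standing for 1 captured RNA molecule), with a median of 5564 UMIs. Classes were gated cell by cell on markers outside the 9 genes, and 5719 cells (88.2%) fell in exactly 1 class. Microglia gave 2617 cells, endothelial cells 1476, ependymal cells 590, choroid plexus epithelium 473, border macrophages 240, astrocytes 114, oligodendrocytes 83, B cells 33, neurons 27, recruited myeloid cells 25, and T or NK cells 22. Orders of levels below are among these 11 classes of at least 20 cells. A further 9 mural cells and 7 fibroblasts were too few, and are named where they stood higher. Astrocytes, the cells the sort was meant to enrich, were 1.76% of the cells kept. A tdTomato UMI was seen in 237 cells and an EGFP UMI in 69, of which 46 were ependymal. Hopx itself stood at 67.5 UMIs per 1000000 in the ependymal cells with an EGFP UMI, against 152 in those without, a ratio of 0.444 (95% interval 0.284 to 0.663). Levels below are UMIs summed over the cells of a class per 1000000 UMIs of that class (CPM), with exact 95% intervals that cover counting error only.

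IGF1 and IGF2 are secreted growth factors that signal through the IGF1 receptor, a tyrosine kinase. The cation-independent mannose 6-phosphate receptor, encoded by Igf2r, takes up IGF2 and delivers it to lysosomes without such signalling. The binding proteins hold the ligands outside cells, extend their life, and either withhold them from the receptor or hand them over when proteases cut the complex. In the brain the choroid plexus is a known source of IGF2 and of IGFBP2 in the cerebrospinal fluid. IGFBP7, which binds IGFs only weakly, is a known product of vessels.

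The sequences before 4 of the binding-protein genes are shown as 2 pairs. Igfbp2 and Igfbp5 are neighbours on chromosome 1 with no other protein-coding gene between them, and they were high in different classes. Igfbp3 and Igfbp7 were both high in endothelium. Each line gives the 250 bases upstream of the first listed start, 5′ to 3′ on the gene's strand, from RefSeq on GRCm38.p6, a different build from the GRCm39 of the counts. Capitals mark a GC box (GGGCGG or its reverse complement CCGCCC), and a TATA box (TATAAA or TTTATA) was also searched on both strands. The windows are chr1:72824230-72824479 on the plus strand for Igfbp2, chr1:72874866-72875115 on the minus strand for Igfbp5, chr11:7213924-7214173 on the minus strand for Igfbp3, and chr5:77408046-77408295 on the minus strand for Igfbp7.
Igfbp2: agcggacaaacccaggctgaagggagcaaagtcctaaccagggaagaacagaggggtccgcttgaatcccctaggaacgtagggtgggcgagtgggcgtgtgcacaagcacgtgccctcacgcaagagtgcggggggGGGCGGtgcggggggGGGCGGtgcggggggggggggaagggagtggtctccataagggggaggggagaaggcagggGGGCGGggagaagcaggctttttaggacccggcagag
Igfbp5: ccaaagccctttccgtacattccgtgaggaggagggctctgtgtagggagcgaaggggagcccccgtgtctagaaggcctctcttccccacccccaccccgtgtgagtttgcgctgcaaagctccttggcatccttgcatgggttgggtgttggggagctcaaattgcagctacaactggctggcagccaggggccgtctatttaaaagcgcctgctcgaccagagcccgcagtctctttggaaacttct
Igfbp3: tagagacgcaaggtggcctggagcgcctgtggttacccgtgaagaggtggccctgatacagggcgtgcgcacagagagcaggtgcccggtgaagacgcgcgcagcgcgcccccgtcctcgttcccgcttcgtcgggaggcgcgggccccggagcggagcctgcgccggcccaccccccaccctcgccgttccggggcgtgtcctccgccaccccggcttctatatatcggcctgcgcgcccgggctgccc
Igfbp7: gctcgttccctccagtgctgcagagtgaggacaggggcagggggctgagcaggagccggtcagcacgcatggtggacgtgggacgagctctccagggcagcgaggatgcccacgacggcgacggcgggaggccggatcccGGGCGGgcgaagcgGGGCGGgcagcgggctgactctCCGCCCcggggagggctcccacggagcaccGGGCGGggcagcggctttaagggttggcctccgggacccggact

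The window of Igfbp2 held 3 GC boxes and that of Igfbp7 held 4, while those of Igfbp5 and Igfbp3 held 0. Igfbp2 had a second listed start, not shown, whose window held 0 GC boxes and 56.4% G and C. Among 32841 promoter windows of the same length, 32.7% held at least 1 GC box and 12.4% a TATA box. None of the 4 windows shown held these TATA letters. The share of G and C was 67.2% for Igfbp2, 58.8% for Igfbp5, 73.2% for Igfbp3 and 74.0% for Igfbp7, against a median of 52.4% over all windows. All 9 genes had an entry in the promoter table. A match or its absence describes these letters in this window only.

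The ligand Igf2 (ENSMUSG00000048583) was found mainly in the choroid plexus. Classed cells held 67.6% of the 179 Igf2 UMIs of all cells kept, and 57 lay in cells that met the gates of several classes. Choroid plexus cells held 112 of the 121 Igf2 UMIs of classed cells, a level of 23.5 CPM (19.3 to 28.2). The other 10 classes held 7 UMIs between them, 2 more lay in fibroblasts, and astrocytes, ependymal cells, oligodendrocytes, B cells, T or NK cells and recruited myeloid cells held 0. Choroid plexus stood 79.8 times above all other classed cells (40.6 to 179). An Igf2 UMI was found in 102 choroid plexus cells (21.6%), against 0.0764% of microglia, and the median depth was 9966 UMIs in choroid plexus and 6434 in microglia. With each cell thinned to 2000 UMIs the share was 6.85% in choroid plexus and 0.0394% in microglia. Igf2 stands next to the insulin gene Ins2 on chromosome 7 in the RefSeq annotation.

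Igfbp2 (ENSMUSG00000039323), a binding protein of cerebrospinal fluid, had 11686 of its 12500 classed UMIs in choroid plexus. Its level there was 2449 CPM (2405 to 2494), and every 1 of the 473 cells carried it. Ependymal cells came next with 183 CPM (169.8 to 198) and astrocytes with 82.2 (59.2 to 111). None of the other 8 classes exceeded 10.8 CPM, and neurons and B cells held 0 UMIs. The 7 fibroblasts had 452 CPM (272 to 705) on 19 UMIs. The intervals of these 3 leading classes did not overlap. Choroid plexus stood 92.0 times above all other classed cells (85.7 to 98.9) and 13.4 times above ependymal cells (12.4 to 14.5). Classed cells held 67.3% of the 18581 Igfbp2 UMIs of all cells kept, and 6003 lay in cells that met the gates of several classes.

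Free RNA from choroid plexus was gauged with Ttr, the transthyretin gene that dominates choroid plexus RNA. Ttr in ependymal cells stood at 0.166% of its choroid plexus level and in microglia at 0.100%. Igfbp2 stood at 7.49% of its choroid plexus level in ependymal cells, 3.35% in astrocytes and 0.0986% in microglia. The microglial share was therefore near that of Ttr, and the ependymal and astrocyte shares were above it. The summed choroid plexus marker list stood at 10.5% of its choroid plexus level in ependymal cells, 0.334% in astrocytes and 0.137% in microglia, and the part of this list in the ependymal value was not tested.

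Igfbp2 also differed within the ependymal class. The class fell mostly in 2 clusters, which were built without the 9 genes and are described here by leading genes. The cluster led by Zfp804b, Npy and Rspo3 (154 ependymal cells) had 329 CPM, against 113 in the cluster led by Col6a5, Nrxn3 and Krt15 (422 cells). The ratio was 2.90 (2.48 to 3.40). Igfbp5 differed less, with 156 against 176 CPM in the same clusters, a ratio of 0.886 (0.741 to 1.06). Igf1r and Igf2r gave ratios of 0.859 (0.740 to 0.995) and 0.842 (0.660 to 1.07). The median depth was 6841.5 UMIs in the Npy cluster and 5283 in the Krt15 cluster.

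Igfbp5 (ENSMUSG00000026185), a binding protein that also attaches to the matrix, was highest in astrocytes among the 11 classes. Astrocytes had 366 UMIs, a level of 716 CPM (644 to 793), and 60 of the 114 cells (52.6%) carried it. Ependymal cells had 176 CPM (162 to 189.6) with 49.3% of cells positive. Astrocytes stood 4.08 times above ependymal cells (3.58 to 4.65), and their cells were shallower, with medians of 3782 against 5611.5 UMIs. Thinned to 2000 UMIs, 53.8% of astrocytes and 24.9% of ependymal cells carried an Igfbp5 UMI. The other 9 classes lay between 0 and 43.2 CPM, and the highest of these, T or NK cells, rested on 4 UMIs in 1 cell. The 7 fibroblasts had 1283 CPM (964 to 1675) on 54 UMIs in 4 cells. In microglia 0.726% of cells carried it. Ependymal cells stood 22.6 times (16.2 to 32.4) above choroid plexus, which had 7.75 CPM of Igfbp5 and where the neighbouring Igfbp2 was highest.

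Among astrocytes, 24 cells carried a tdTomato UMI and 90 did not. Igfbp5 was at 757 CPM with tdTomato and 699 without, a ratio of 1.08 (0.859 to 1.36). All 42 Igfbp2 UMIs of astrocytes lay in cells without tdTomato. The upper 95% limit of the ratio with tdTomato to without was 0.228, and 13 astrocytes in all carried Igfbp2. That limit counts each UMI as independent, although several came from the same cell. By cell, 0 of 24 with tdTomato carried Igfbp2 (upper 95% limit 14.2%), against 13 of 90 without (14.4%, 7.92 to 23.4). These intervals overlapped. Median depth was 6128 UMIs with tdTomato and 2927.5 without. A tdTomato UMI shows that the reporter was captured, and its absence does not show that a cell was unlabelled.

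Igfbp4 (ENSMUSG00000017493), a binding protein cut by the protease Pappa to free IGF, was highest in border macrophages among the 11 classes. They held 237 UMIs, 206 CPM (181 to 234), in 52.5% of cells. Microglia had 5.90 CPM (4.82 to 7.14) with 3.67% of cells positive. Median depth was 4382.5 UMIs in border macrophages and 6434 in microglia. Border macrophages stood 35.0 times above microglia (27.7 to 44.4) and 32.1 times above all other classed cells (26.6 to 38.7). None of the other 9 classes passed 5.90 CPM, but the 7 fibroblasts had 974 CPM on 41 UMIs and the 9 mural cells 238 CPM on 9 UMIs. Within border macrophages, the cluster led by Lyve1 and Ccl24 (183 cells) had 251 CPM of Igfbp4, against 97.9 in the cluster led by Ccl8 and Clec12a (53 cells), a ratio of 2.56 (1.66 to 4.13). The Ccl8 cluster held 196 cells in all, of which 101 were gated as microglia, and the part of mixed identity in this ratio was not tested. Summed fibroblast markers were at 14.8 CPM in border macrophages and 1.80 in microglia, and their part in the Igfbp4 value was not tested.

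Igfbp6 (ENSMUSG00000023046), which prefers IGF2 to IGF1, was not a product of any large class. Its level was at most 5.37 CPM in each of the 11 classes. Of its 281 UMIs, 214 (76.2%) lay in 1 cluster of 75 cells led by Dcn, Slc47a1 and Prg4. The gates put 7 of these cells in the fibroblast class, with 53 Igfbp6 UMIs, and 33 in no class, with 145 UMIs and a median of 2710 UMIs per cell. The 29 cells of the cluster gated as microglia held 0. The 7 fibroblasts also carried Igfbp4 (41 UMIs), Igfbp5 (54) and Igfbp2 (19), but with so few cells a single cell gave up to 23 Igfbp6 UMIs.

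**Figure D1:**
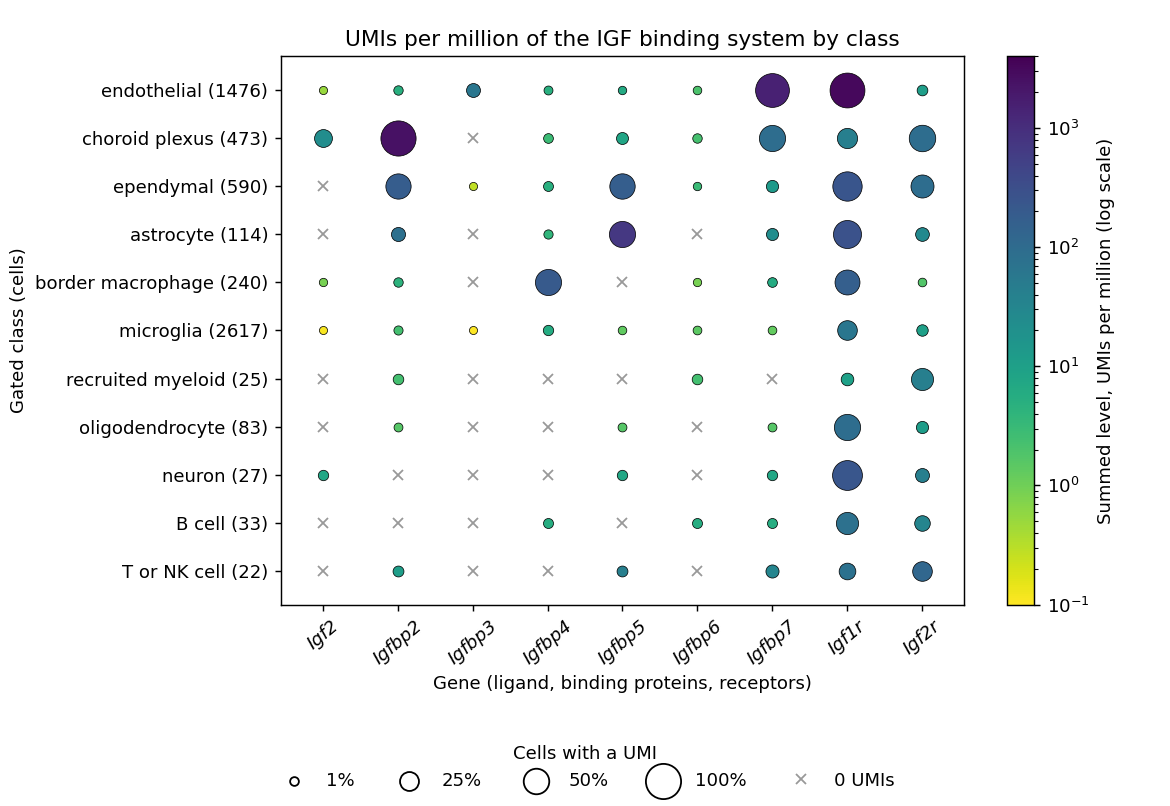
Levels of the 9 genes in the 11 classes with at least 20 cells. Colour gives summed CPM on a log scale, dot area grows with the percent of cells with a UMI, and a cross marks 0 UMIs. Igfbp2 is darkest in choroid plexus, Igfbp4 in border macrophages, Igfbp5 in astrocytes, and Igfbp3, Igfbp7 and Igf1r in endothelium.

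Endothelial cells carried the other 2 binding proteins together with the signalling receptor. Igfbp3 (ENSMUSG00000020427), the main carrier of IGF in blood, had 370 of its 372 classed UMIs in endothelium, a level of 62.5 CPM (56.3 to 69.3), with the other 2 in 1 ependymal cell and 1 microglial cell. Igfbp7 (ENSMUSG00000036256) had 8896 UMIs there, 1504 CPM (1473 to 1535), in 91.7% of cells. Choroid plexus followed with 93.3 CPM (84.8 to 102) and microglia had 1.29 (0.819 to 1.94). The 9 mural cells had 2535 CPM of Igfbp7 (2053 to 3095).

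Igf1r (ENSMUSG00000005533) was detected in each of the 11 classes and was highest in endothelium at 3168 CPM (3123 to 3214), in 98.0% of cells. Astrocytes (278, 234 to 327), ependymal cells (244, 229 to 261) and neurons (239, 164 to 335) followed with overlapping intervals. Border macrophages had 171 CPM, oligodendrocytes 95, B cells 80.6, T or NK cells 75.6, microglia 62.8, choroid plexus 43.6 and recruited myeloid cells 9.62. The 9 mural cells had 528 CPM. Astrocytes to border macrophages overlapped neighbour by neighbour, as did oligodendrocytes to microglia. Endothelium stood 34.5 times above all other classed cells for Igf1r (33.1 to 35.9), 68.9 times for Igfbp7 (63.6 to 74.7) and 921 times for Igfbp3 (253 to 7631). Igf1r and at least 1 binding protein were seen together in 90.9% of endothelial cells.

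The low Igf1r of other classes was set against free endothelial RNA in the same way. Summed endothelial markers in microglia stood at 0.286% of their endothelial level, and Igfbp7 at 0.0859%, but Igf1r at 1.98%. There were 47.5 Igfbp7 UMIs per 100 Igf1r UMIs in endothelial cells, against 2.06 in microglia, 3.55 in border macrophages, 5.36 in ependymal cells, 8.45 in astrocytes and 42.9 in T or NK cells (3 Igfbp7 and 7 Igf1r UMIs). Choroid plexus had the opposite balance, with 214 per 100. The part of free endothelial RNA in the Igf1r of other classes was not tested further.

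Igf2r (ENSMUSG00000023830) had a different order. T or NK cells led at 119 CPM (59.3 to 212) on 11 UMIs, and their interval overlapped those of ependymal cells (96.1, 86.3 to 107) and choroid plexus (94.7, 86.2 to 104). Endothelial cells had 11.0 CPM (8.48 to 14.0) and microglia 10.3 (8.85 to 11.9), so the class richest in Igf1r was among the lowest in Igf2r. The 7 fibroblasts had 143 CPM on 6 UMIs. Border macrophages were lowest at 1.74 (0.211 to 6.29), with 2 UMIs. Choroid plexus stood 4.32 times above all other classed cells (3.82 to 4.87), yet its ratio to ependymal cells was 0.986 (0.856 to 1.14).

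Against a line of 4-fold above all other classed cells, 3 of the 9 genes passed in endothelium, where 7.69% of 13350 features with at least 50 UMIs did so. Choroid plexus also had 3 (Igf2, Igfbp2 and Igf2r), where 5.14% of features passed. Igfbp5 was past the line in astrocytes, where 9.70% of features passed, and in ependymal cells, where 15.6% did. In ependymal cells it stood 10.6 times above the rest (9.41 to 11.9), and in astrocytes 31.1 times (27.4 to 35.2). Igfbp4 was the gene past the line in border macrophages, where 2.22% of features passed. Microglia had 0 higher, where 6.04% of features passed, and 7 lower, where 26.4% did. In oligodendrocytes 8 were lower (22.0% of features), in recruited myeloid cells 6 (22.4%), in border macrophages 5 (20.1%), in choroid plexus 4 (36.0%) and in B cells 4 (18.5%). These calls used the ratio and not its interval. Igf2 and Igfbp6 had 0 UMIs in oligodendrocytes, with upper limits of the ratio of 1.76 and 1.82. Both intervals include 1, so a lower level was not shown for them. Igfbp3 and Igfbp4 had 0 UMIs in recruited myeloid cells, with upper limits of 0.838 and 0.681, short of 4-fold. Further lower calls also had upper limits short of 4-fold. Examples were Igfbp3 (0.567) and Igfbp4 (0.461) in oligodendrocytes, Igfbp3 in astrocytes (0.679), Igfbp5 in B cells (0.597) and Igf2 in endothelium (0.379). The counts of lower genes are therefore counts of ratios, and a 4-fold difference was not shown for each. Endothelium had 3 lower (21.7%), ependymal cells 3 (13.6%), astrocytes 3 (13.6%), T or NK cells 3 (11.1%) and neurons 2 (12.4%). The median log2 ratio of the 9 genes in microglia was -5.57, against -0.52 over all features tested. At least 1 of the 6 binding proteins was seen in 100% of choroid plexus cells, 92.3% of endothelial cells, 74.7% of ependymal cells, 59.6% of astrocytes, 54.2% of border macrophages and 7.57% of microglia.

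Within endothelium, Igfbp3 followed the vessel. Endothelial cells were split by arterial, venous and capillary markers outside the 9 genes into 177 arterial, 168 venous and 666 capillary cells, with 465 left unzoned. Igfbp3 had 296 CPM (243 UMIs) in arterial cells, 8.48 (9 UMIs) in venous cells, 12.4 (28 UMIs) in capillary cells and 50.7 (90 UMIs) in unzoned cells. Arterial cells stood 11.9 times above the other endothelial cells (9.55 to 14.9), and an Igfbp3 UMI was present in 50.8% of them. Of 4 members with enough UMIs in endothelium (Igfbp3, Igfbp7, Igf1r and Igf2r), Igfbp3 alone was past 2-fold in arterial cells, where 2.44% of 8816 features were higher. It was also the member past 2-fold in the other direction in venous cells (ratio 0.114, 0.0517 to 0.219), where 2.51% of features were lower, and in capillary cells (0.133, 0.0868 to 0.195), where 1.61% were. The cells compared with each included the arterial cells, which held 243 of the 370 endothelial Igfbp3 UMIs. These calls are therefore not separate from the arterial one. The intervals of venous (3.88 to 16.1 CPM) and capillary cells (8.24 to 17.9 CPM) overlapped.

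Igfbp7 and Igf1r were shifted less. Igfbp7 was at 2227 CPM in arterial, 1448 in capillary and 1150.1 in venous cells, and arterial cells stood 1.60 times above the other endothelial cells (1.52 to 1.69). Igf1r was at 2302 CPM in arterial, 3739.9 in capillary and 2839.9 in venous cells. Its ratio to the other endothelial cells was 0.696 (0.663 to 0.730) in arterial cells and 1.33 (1.29 to 1.37) in capillary cells. In venous cells both were lower than in the other endothelial cells, with ratios of 0.727 (0.684 to 0.773) for Igfbp7 and 0.877 (0.843 to 0.911) for Igf1r. Igf2r did not separate the zones, with 11.0 CPM in arterial, 12 in capillary and 7.54 in venous cells. Capillary cells held 34 of the 38 endothelial Igfbp5 UMIs, and 21 of the 38 came from 1 cell. Median depth was 4257 UMIs in arterial, 3154 in capillary and 5688 in venous cells.

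**Figure D2:**
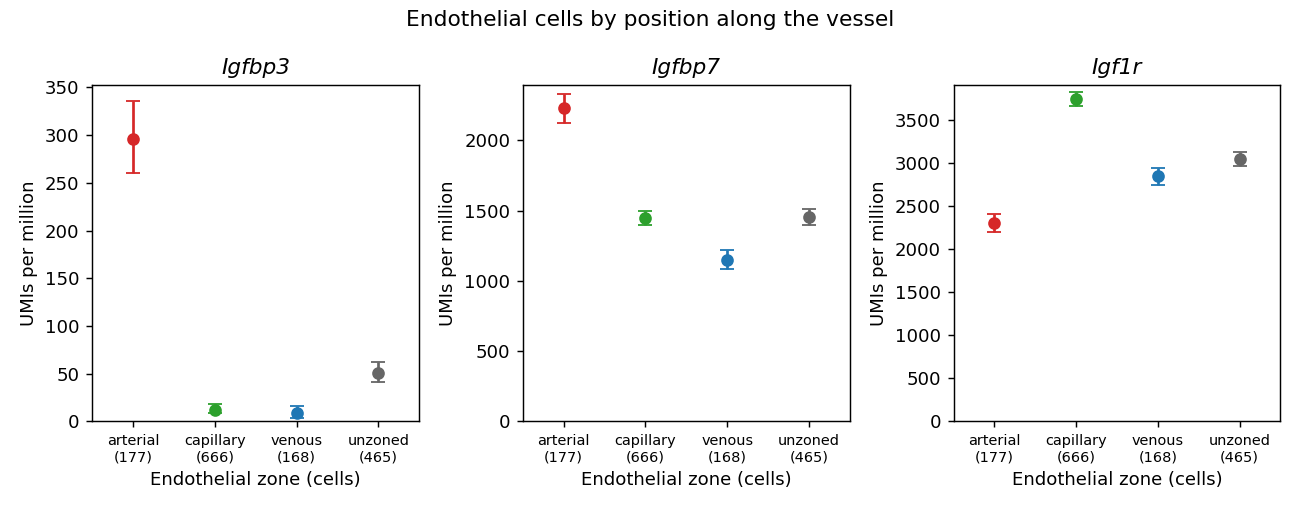
Summed CPM of Igfbp3, Igfbp7 and Igf1r in endothelial cells by zone, with exact 95% Poisson intervals and cell numbers under each zone. Igfbp3 reaches 296 in arterial cells against 8.48 in venous cells, Igfbp7 is highest in arterial cells at 2227, and Igf1r is highest in capillary cells at 3739.9.

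Microglia carried little of the system, and what they carried differed between clusters. The cluster led by Slc2a5 and Csmd3 (515 cells) had 159 CPM of Igf1r, against 46.5 in the other microglia, a ratio of 3.41 (3.01 to 3.86). The same cluster held 0 Igf2r UMIs, against 183 in the other microglia (12 CPM), and the upper 95% limit of the ratio was 0.120. It also had 14.7 CPM of Igfbp4, against 4.40 in the others, a ratio of 3.34 (2.18 to 5.05). Igf2r and Igfbp4 went the opposite way in the cluster led by Spp1, Lpl and Gpnmb (285 cells). This cluster had 26.2 CPM of Igf2r against 7.75 in the other microglia, a ratio of 3.38 (2.45 to 4.61). Its Igfbp4 was 0.818 against 6.71 CPM on 2 and 103 UMIs, a ratio of 0.122 (0.0146 to 0.452). Its Igf1r was 54.4 against 64.2 CPM, a ratio of 0.848 (0.702 to 1.02), an interval that spans no difference. The other microglia in each comparison included the cells of the other cluster.

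The ligand Igf1, which is no member but binds the same receptor, was concentrated in that Spp1 cluster. It had 228 UMIs there, 93.3 CPM, against 68 UMIs and 4.43 CPM in the other microglia, a ratio of 21.1 (16.0 to 28.0). In the Slc2a5 and Csmd3 cluster Igf1 stood at 2 UMIs against 294 in the others, a ratio of 0.0401 (0.00483 to 0.146). The cluster led by Cxcl13 and Cxcl9 (507 cells) had the least Igf1r of the 5 large microglial clusters, 28.3 CPM against 72.7 in the other microglia (ratio 0.389, 0.317 to 0.473). Median depth was 4803 UMIs in the Csmd3 cluster, 8424 in the Spp1 cluster and 7596 in the Cxcl13 cluster.

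**Figure D3:**
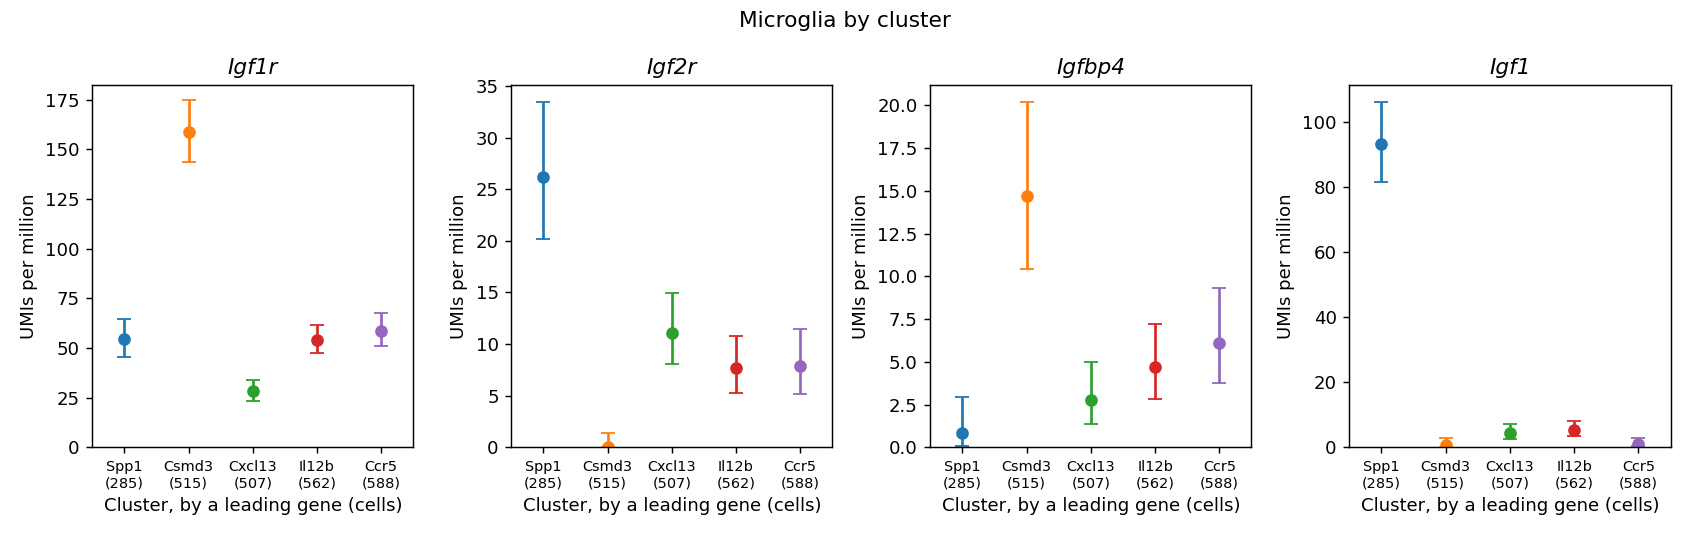
Summed CPM of Igf1r, Igf2r, Igfbp4 and Igf1 in the 5 large microglial clusters, named by a leading gene, with exact 95% Poisson intervals and cell numbers. The Csmd3 cluster is highest for Igf1r (159) and Igfbp4 (14.7) and has 0 Igf2r UMIs, and the Spp1 cluster is highest for Igf2r (26.2) and Igf1 (93.3).

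The design set transduced against untransduced astrocyte-lineage cells, but 2 astrocytes and 2 neurons carried an EGFP UMI. The comparison was therefore made in ependymal cells, 46 with an EGFP UMI and 544 without. The 46 cells held 61 EGFP UMIs. The absence of an EGFP UMI does not show that a cell was untransduced, so the group without may hold transduced cells. Igfbp2 was at 176 CPM with EGFP and 184 without, a ratio of 0.952 (0.726 to 1.23). Igfbp5 was at 197 with and 173 without (1.14, 0.880 to 1.45), and Igf1r at 246 with and 244 without (1.01, 0.801 to 1.25). Igf2r was at 138 with and 91.4 without, a ratio of 1.51 (1.10 to 2.03). None of these 4 genes was past 2-fold in either direction, where 3.06% of 9272 features were higher and 3.47% lower. The groups differed in their clusters: the Krt15 cluster, with the lower Igfbp2, held 42 of the 46 cells with EGFP (91.3%) and 380 of the 544 without (69.9%). Within that cluster Igfbp2 was at 135 CPM with EGFP and 110.3 without, a ratio of 1.22 (0.859 to 1.70). Igfbp5 gave 1.17 (0.884 to 1.54) there, Igf1r 0.974 (0.759 to 1.24), and Igf2r 1.41 (0.985 to 1.97), an interval that includes 1. Over all ependymal cells, those with EGFP were deeper, with a median of 6450 UMIs against 5538.5. With every cell thinned to 2000 UMIs in 1 random draw, Igf2r had 17 UMIs in 46 cells with EGFP and 74 in 500 cells without. Its log2 ratio in that draw was 1.35. In a separate draw to the same depth, an Igf2r UMI was seen in 9 of the 46 cells with EGFP (19.6%) and 85 of the 500 without (17%). The spread between draws was not measured.

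**Figure D4:**
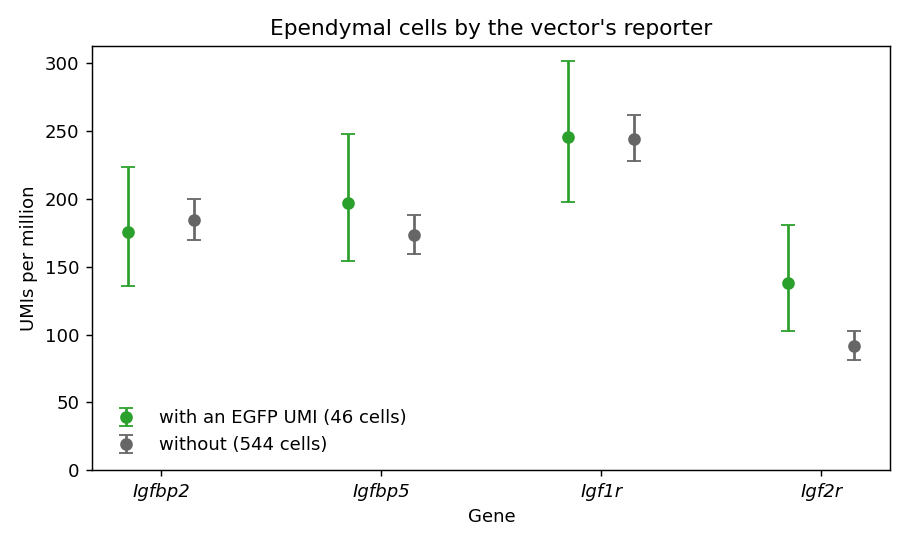
Summed CPM of 4 genes in ependymal cells with an EGFP UMI (46 cells, left of each pair) and without (544 cells), with exact 95% Poisson intervals. The intervals overlap for Igfbp2, Igfbp5 and Igf1r, and Igf2r is at 138 with EGFP and 91.4 without.

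Of 30 further genes of the pathway that were listed, 29 were among the features, 11 reached 100 CPM in a class of at least 20 cells, and 20 had enough UMIs for the 4-fold line. Endothelium had 4 of these 20 past the line upward, read against the 7.69% above. They included the insulin receptor Insr at 312 CPM, 6.34 times the other classed cells (5.91 to 6.80), and the adaptor Grb10, which dampens insulin and IGF receptors, at 195 CPM and 39.1 times (32.9 to 46.8). The related adaptor Grb14 was at 166 CPM in endothelium, 4.43 times the others (4.06 to 4.83), and at 1078 CPM in oligodendrocytes, 26.1 times the others (23.8 to 28.7). The protease gene Htra3 was the remaining endothelial gene, on 45 UMIs. Endothelium therefore carried the receptors Igf1r and Insr together with both adaptors.

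Outside endothelium, the secreted protease gene Htra1 was highest in astrocytes at 1590.4 CPM, 55.4 times the other classed cells (50.4 to 60.8), and stood at 596 CPM in oligodendrocytes. Astrocytes had 2 of the 20 genes past the line upward (9.70% of features), and oligodendrocytes had 4 (where 7.13% of features passed). Igf1 was the border macrophage gene past the line (2.22% of features), at 172 CPM and 18.4 times the others (15.3 to 22.1). This class also led for Igfbp4. Its Lyve1 cluster had 202 CPM of Igf1, against 93.6 in its Ccl8 cluster, a ratio of 2.16 (1.38 to 3.54). Here too, Igf1 was not left out when the clusters were built. Pik3r1, the regulatory subunit of phosphoinositide kinase, was highest in microglia at 689 CPM and 7.30 times the others (6.93 to 7.69). It was 1 of 3 genes past the line there, where 6.04% of features passed. Igfbpl1, a relative of the binding proteins, was highest in neurons at 1107 CPM and past the line there (where 12.4% of features passed). Irs2, an adaptor of the receptors, was highest in ependymal cells at 185 CPM, Foxo1 in T or NK cells at 248 and astrocytes at 235, and Foxo3 in astrocytes at 137, and these last 2 encode transcription factors held back by insulin and IGF signalling. The other 18 genes were below 100 CPM in every such class.

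The genes most alike to each member across the 11 classes were ranked by Pearson's r of log2(CPM + 1) over 9383 features, a description in which all points share 1 library. Igfbp2 was closest to Ppp1r1b (r = 0.965), Sema3b and Slc13a4. Igfbp5 was closest to Gpc6 (0.987), Camk2g and Gpld1. Igfbp7 was closest to Cyyr1 (0.907), Abhd2 and Abcc4, and Igf1r to Wdr48 (0.928), Sesn1 and Gbe1. Igf2r had the weakest best match, Pfkp (0.859), followed by Cep162 and Pdcd6. Igf2, Igfbp3, Igfbp4 and Igfbp6 had under 500 UMIs in classed cells and were not ranked.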

How the data were processed

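The authors' deposited matrix holds UMI counts of 1 single-cell 3′ library. Cell Ranger 8.0.1 and GRCm39 are named in the submitters' processing notes; the annotation they counted on is not given there, and 0 columns belonged to another series. Barcodes with at least 500 genes and at most 15% mitochondrial UMIs were kept.

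A cell joined a class if at least 50% and at least 3 of its markers had a UMI. Border macrophages overrode microglia and recruited cells, and recruited cells overrode microglia. Another 429 cells that met several classes (median 12164 UMIs) were left out as possible doublets, and 337 that met none (median 1657 UMIs) were also left out. Of those left out with no class, 174 were 1 marker short of the gate, and 287 classed cells sat exactly on it. Thresholds were set after the data were seen, and the members and lists were chosen with earlier results of these data known. A rebuilt class can differ from the study's own cell types.

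Zones needed at least 3 markers of their own. An arterial or venous cell needed more of its own than of the other, and a capillary cell at most 1 of each other list. Clusters came from scanpy 1.11.5 (2000 variable genes without the members and reporters, 30 components, 15 neighbours, Leiden resolution 1, seed 0), and ratios between clusters were added after the clusters were seen. UMIs were summed per group; Poisson, Clopper-Pearson and conditional binomial intervals (95%) cover counting error only. Fold lines (4 between classes, 2 within) used features with at least 50 UMIs. Named were all 9 members, pathway genes at 100 CPM or more in a class of at least 20 cells, and the 3 features most alike to each member with at least 500 UMIs, among features with 50 CPM or more in a class. Htra3, Ttr and the genes that lead clusters were named after their values were seen. A pathway gene that the rule names is not reported here. The steps were tested on simulated data. Further tools were scipy 1.17.1, numpy 2.4.6, scikit-learn 1.9.0, Python 3.11.15, igraph 0.11.9, matplotlib 3.10.9 and pandas 2.3.3.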

Additional observations from a re-analysis of the deposited data

How the results depend on the processing

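The alternatives were a stricter cell filter, removal of cells called by Scrublet, cells weighed equally, classes from named clusters, 1 more marker per gate, the top cell left out, thinning and, chosen after seeing the data, 1 fewer marker per gate and the Krt15 cluster alone for EGFP. The 15 counts of members past a fold line gave 90 values, of which 82 stayed within 1.5 times the value reported and 8 did not. Between classes these counts took only genes that were higher, so the counts of genes that were lower were not checked. The log2 ratio of Igf2r in choroid plexus was 1.97 at its least, under the 4-fold line, against 2.11 as reported. Ependymal cells had 2 members past the line with cells weighed equally and 2 with 1 fewer marker. Neurons had 1 with cells weighed equally and 1 with classes from named clusters. T or NK cells had 1 with cells weighed equally and 1 with 1 fewer marker, and B cells had 1 with 1 more marker. As reported, without these changes, 5.58% of features passed in T or NK cells and 4.12% in B cells. By EGFP, 1 gene (Igf2r) was past 2-fold with cells thinned in 1 random draw. Of 452 values of single ratios, 43 left the interval reported. The log2 ratio of Igfbp3 in astrocytes reversed, to 0.29 with classes from named clusters, against -3.45 with gates, which rested on 0 astrocyte UMIs. The cause was not tested. Scrublet called 261 cells (4.02%), of which 201 were among the 429 that met several classes. With 1 library, differences between mice cannot be measured, and the classes with 22 to 33 cells hold few UMIs of each gene. No paired analysis was possible because each group has 1 sample.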

Other observations

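A cluster of 27 cells led by Myh11, Notch3 and Tagln, markers of vascular mural cells, was left unnamed by the naming rule. Of these, 9 were gated as mural, 5 as endothelial, 12 met several classes and 1 met none. It had 2140.5 CPM of Igfbp7 (283 UMIs, in 25 cells), 1256 CPM of Igf1r, 174 CPM of Igfbp3 (23 UMIs in 6 cells) and 136 CPM of Igfbp4 (18 UMIs in 10 cells). The 12 cells that met several classes held 21 of the 23 Igfbp3 UMIs and 136 of the 166 Igf1r UMIs, and the 9 mural cells held 0 and 20. The cluster led by Dcn and Slc47a1 held, beside Igfbp6, 432 Igfbp5 UMIs, of which 192 came from 3 cells that met several classes, with 157 in 1 of these. Its 33 cells of no class had 1068 CPM of Igfbp5 and 1191 CPM of Igfbp6.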
